A study of Mus musculus with 4 samples.

Results

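Monocytes low in C1q were picked barcode by barcode from droplet single-cell RNA sequencing of mouse kidney after ischemia-reperfusion (I/R). A member had at least 3 UMIs (unique molecular identifiers, each standing for 1 captured RNA molecule) of Plac8 and at least 1 of Csf1r. It also had at most 2 UMIs of C1qa, C1qb and C1qc together and 0 UMIs of Cd3d, Cd3e, Cd79a, Flt3 and Siglech. Barcodes were first kept when they had 200 genes or more and when mitochondrial genes made up no more than 50% of their UMIs. Of 37839 kept barcodes, 222 passed the gate. The gate read measured values, so the levels of its own genes describe the choice and are no result.

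The animals were male C57BL/6 mice, all subjected to I/R injury of the kidney, in 4 groups of 1 library each. The groups named IR d5, IR d14 and IR d28 were sampled 5, 14 and 28 days after injury without the probiotic bacterium. The group named IR Lac.z d5 was sampled at day 5 after 4 weeks of gavage with L. casei Zhang (Lac.z), at 1e9 colony-forming units per day before injury. The sources used here do not give the age of the mice, the number of animals per library or what the other groups received by gavage, and uninjured kidney was not analysed here. With 1 library per group no test between groups is possible, no p-value is given, and animal, library and group cannot be told apart. Version and time after injury also cannot be told apart, because the matrix headers of the later libraries (days 14 and 28) carry software version 3.1.0 and those of the day 5 pair carry 3.0.2.

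Monocytes are made in the bone marrow and circulate in the blood. In mice, classical monocytes carry Ly6C (Ly6c2) and the chemokine receptor Ccr2, enter injured tissue and can turn into macrophages, which then make complement C1q. Nonclassical monocytes lose Ly6C, depend on the transcription factor Nr4a1 and patrol the inner face of vessels, and are known by Treml4, a receptor of the TREM family, and by Ace, the angiotensin-converting enzyme. In the mouse genome (GRCm38) Plac8 lies on chromosome 5 from 100553725 to 100572245 on the minus strand, and Ly6c2 on chromosome 15 from 75108158 to 75111970 on the minus strand. Treml4 lies on chromosome 17 from 48264295 to 48275360 and Ace on chromosome 11 from 105967945 to 105989964, both on the plus strand. Ly6c2 has a close relative, Ly6c1. Of the 60-base words in the last 500 bases of the coding transcripts of Ly6c2, 27.5% also occur in Ly6c1, so that counts of either gene are uncertain.

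The libraries held 76678882 to 104454319 UMIs in 8168 to 15583 deposited barcodes, and 7043 to 14138 barcodes were kept in each. The median member had 10245 UMIs in the day 5 library, 9728.5 in the Lac.z library, and 8800 and 7650 in those of days 14 and 28. Pairs of libraries shared 9 to 32 kept barcode sequences, and no member barcode was a member in another library. All intervals below are exact 95% intervals (Clopper-Pearson for a share, conditional for a ratio). They cover counting error only, not the spread between animals or, for the ratio of a gene, between cells. A difference is called higher or lower when it reaches 1.5-fold, a rule of size and not a test.

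Members were few in every library. The day 5 library held 54, the Lac.z library 72, and the libraries of days 14 and 28 held 61 and 35. As a share of kept barcodes this was 0.762% (0.573 to 0.993), 1.02% (0.801 to 1.29), 0.637% (0.488 to 0.818) and 0.248% (0.172 to 0.344). Against day 5 the share was 1.34 times as large with Lac.z (0.93 to 1.95) and 0.836 times as large at day 14 (0.570 to 1.23), both within 1.5-fold, and 3.08-fold lower at day 28 (1.98 to 4.85).

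The order of the libraries depended on what the members were counted against. Over barcodes with at least 1 Csf1r UMI and none of the lymphoid and dendritic genes of the gate, the share was 1.42% of 3800 at day 5. It was 4.06% of 1773 with Lac.z, 5.01% of 1217 at day 14 and 4.81% of 727 at day 28, which is 2.86, 3.53 and 3.39 times the day 5 share. Over barcodes with Ptprc, the gene of the leukocyte antigen CD45, the ratios to day 5 were 2.75, 2.59 and 2.13. When a requirement of at least 1 Ptprc UMI took the place of the Plac8 minimum, 175, 101, 123 and 54 barcodes passed, and the ratios to day 5 over kept barcodes were 0.581, 0.520 and 0.155. This setting changed both conditions at once, and the part of each was not tested. Shares of a dissociated tissue also move with the number of all other cells, so that more monocytes and fewer other cells cannot be told apart.

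**Figure D1:**
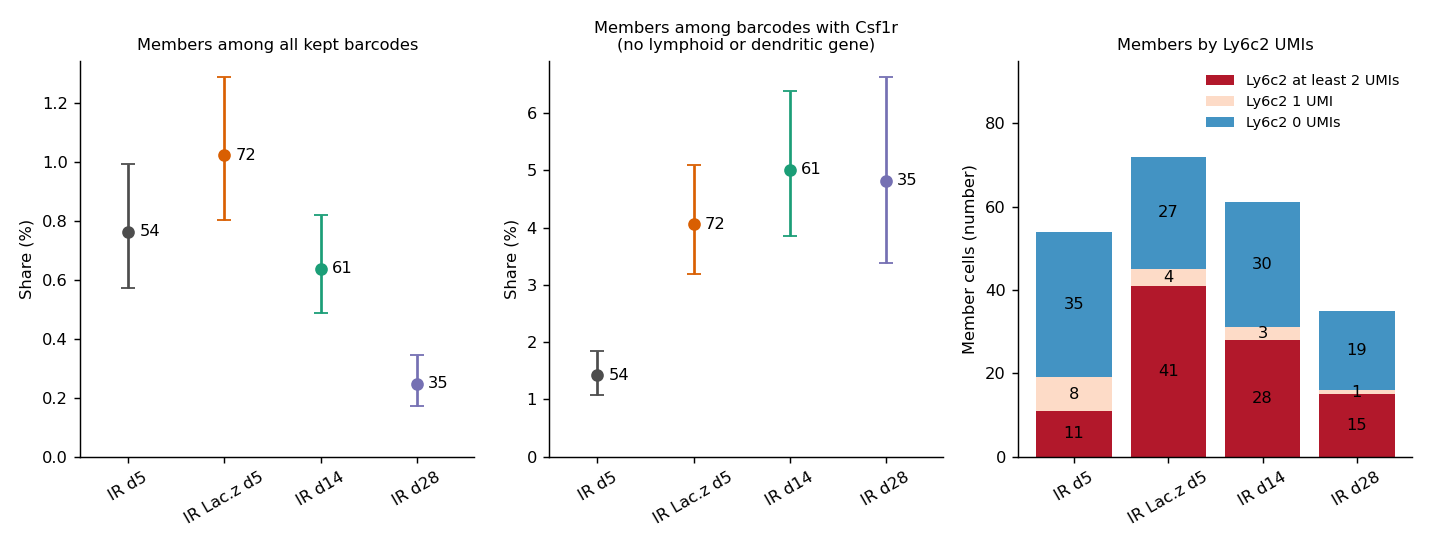
Low-C1q monocytes in the 4 libraries. Left and middle: share (%) of all kept barcodes and of barcodes with Csf1r, with exact 95% intervals and the number of members beside each point; right: number of members by Ly6c2 UMIs. The day 28 library has the lowest share of all kept barcodes (0.248%), while over Csf1r barcodes the lowest is day 5 (1.42%).

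Cells just inside and just outside the gate were not a clean break at day 5. There, 10 members had exactly 3 Plac8 UMIs and 4 otherwise matching barcodes had exactly 2. With Lac.z the counts were 2 inside and 8 outside, at day 14 they were 3 and 12, and at day 28 they were 1 and 3. On the C1q side, 10 day 5 members had exactly 2 C1q UMIs, against 2, 2 and 0 in the other libraries, and 1, 3, 0 and 0 barcodes had exactly 3. Barcodes with Plac8 at the member level but C1q above the limit numbered 43 at day 5 but 290 with Lac.z, and 7 and 6 in the later libraries. Among macrophages high in C1q (at least 10 C1q UMIs), 41 of 3425 (1.20%) had at least 3 Plac8 UMIs at day 5 and 281 of 1559 (18%) with Lac.z. At days 14 and 28 it was 7 of 838 (0.835%) and 5 of 477 (1.05%). The gate therefore leaves a larger group of Plac8-carrying cells outside with Lac.z than in the other libraries.

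Plac8 itself ranged from 3 to 48 UMIs per member at day 5, with a median of 11.5. The median was 27 (3 to 144) with Lac.z, 23 (3 to 116) at day 14 and 17 (3 to 144) at day 28. Plac8 RNA was not limited to leukocytes in these libraries. Proximal tubule barcodes were those with at least 3 UMIs of Slc34a1, a phosphate transporter of this segment, and no UMI of Csf1r or Ptprc. Of these, 18.8%, 25.3%, 16.9% and 11.8% had a Plac8 UMI, at median depths of 7336.5, 8319.5, 6616 and 5503 UMIs. Ly6c2 had a UMI in 0.0805%, 0.513%, 0.147% and 0.132% of the same tubule barcodes. Leaving out barcodes with Csf1r or Ptprc also removes barcodes with leukocyte RNA, so these are not shares of all Slc34a1 barcodes.

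Monocyte markers were not equally present in all members. The 14 markers were all detected in each library, as were all 14 markers of the proximal tubule. The monocyte markers stood at a summed 16749, 17288, 16573 and 10666 UMIs per 1000000 UMIs of the members (CPM) in the order day 5, Lac.z, day 14 and day 28. Cells with at least 2 Ly6c2 UMIs held 39444, 27518, 28278 and 22295 CPM of monocyte markers, against 136, 4536, 4521 and 6160 CPM of tubule markers. Cells with 0 Ly6c2 UMIs held 9389, 4433, 6392 and 3960 CPM of monocyte markers and 2878, 9157, 10012 and 5822 CPM of tubule markers. In these cells the tubule sum was above the monocyte sum in every library other than day 5, so that the label did not hold for them as a sum. The monocyte list holds Plac8, which the gate reads, and Ly6c2, which makes the split. Detection of Plac8 and part of these sums were therefore fixed by the choice of cells. Lyz2, which encodes lysozyme, alone made up 27647, 15699, 19681 and 13510 CPM in the cells with at least 2 Ly6c2 UMIs. In those with 0 it made up 6653, 2301, 3341 and 2039 CPM. Compared with C1q-high macrophages of the same library, 888 of 9342 measured genes (9.51%) were at least 1.5-fold higher in all 4 libraries and 285 (3.05%) were lower. Without the cells that carried markers of other cells, described next, it was 627 (6.99%) and 365 (4.07%) of 8970. Since C1q and Plac8 chose the cells, these values only describe them. Pglyrp1, a secreted protein that binds bacterial peptidoglycan, stood at 62.9 to 147 CPM in members and at most 0.902 CPM in macrophages. Hp, which encodes haptoglobin, stood at 261 to 661 CPM against 1.80 to 12.4 CPM. Treml4 (34.4 to 78.9 against 2.25 to 6.32 CPM), Adgre4, an adhesion receptor of nonclassical monocytes (46.7 to 115 against 2.45 to 8.12 CPM), and Ace (53.7 to 155 against 0.408 to 8.72 CPM) followed. Lower in members were genes of settled macrophages. Ms4a7, a membrane protein of macrophages, was at 2.67 to 87.2 CPM against 713 to 844 CPM, and Fcrls at 0 to 7.37 CPM against 161 to 347 CPM. The chemokine genes Ccl8, Pf4, Ccl12 and Ccl7 and the scavenger receptor gene Stab1 were also among the 10 lowest.

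Other cells' RNA was part of the picture. Of the 222 members, 25 (11.3%) had no Ptprc UMI and a further 27 (12.2%) carried at least 50 UMIs of kidney epithelial, endothelial or stromal markers per 10000. Another 14 carried at least 50 neutrophil marker UMIs per 10000, and 17 more had Cd209a, a lectin gene of dendritic cells. Setting these aside left 139 members (32, 46, 39 and 22), a filter chosen after the data were seen, and results below are also given for them. Proximal tubule markers, all 14 of them detected in every library, summed to 1969, 6429, 7293 and 5897 CPM in all members and to 137, 325, 350 and 473 CPM in the filtered ones. Neutrophil markers summed to 1847, 8319, 330 and 50.7 CPM before and 111, 278, 171 and 97.2 CPM after the filter. Markers of fibroblasts and mural cells summed to 1814, 8.60, 6.19 and 963 CPM, and to at most 8.67 CPM in the filtered members of any library.

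Ly6c2 divided the members in proportions that differed between libraries. At least 2 Ly6c2 UMIs were found in 11 of 54 members at day 5, which is 20.4% (10.6 to 33.5). With Lac.z it was 41 of 72, or 56.9% (44.7 to 68.6). At day 14 it was 28 of 61, or 45.9% (33.1 to 59.2), and at day 28 it was 15 of 35, or 42.9% (26.3 to 60.6). Members with 0 Ly6c2 UMIs numbered 35, 27, 30 and 19, and those with exactly 1 numbered 8, 4, 3 and 1.

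The share with at least 2 Ly6c2 UMIs was 2.80 times the day 5 share with Lac.z (1.41 to 6.03), 2.25 times at day 14 (1.09 to 5.02) and 2.10 times at day 28 (0.903 to 5.06). In the 139 filtered members it was 34.4%, 67.4%, 59.0% and 54.5%, and the ratios were 1.96 (0.959 to 4.32), 1.72 (0.803 to 3.90) and 1.59 (0.641 to 3.97). The interval of the day 28 ratio and those of all 3 filtered ratios include 1. Cells also differed in how much Ly6c2 they held. Within the cells that had at least 2, the median was 3 UMIs at day 5 (2 to 39), 20 with Lac.z (2 to 89), 5.5 at day 14 (2 to 60) and 6 at day 28 (2 to 30). When every member was thinned to 2000 UMIs, 1 of 54 members (1.85%) kept at least 2 Ly6c2 UMIs at day 5. With Lac.z it was 28 of 71 (39.4%), with 1 shallower member left out, and at days 14 and 28 it was 18 of 61 (29.5%) and 6 of 35 (17.1%). In another setting all barcodes were thinned to 2000 UMIs for the gate only, and Ly6c2 was read at full depth in the cells that passed. The ratios were then 1.64, 1.14 and 0.948, so that only the Lac.z ratio passed 1.5. This is a split of other cells and does not compare Ly6c2 at equal depth.

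Members with 0 Ly6c2 UMIs were not all nonclassical monocytes. Taking the marks in a fixed order, 25 of these 111 cells had no Ptprc UMI, 11 carried kidney markers, 10 neutrophil markers and 13 Cd209a. At least 5 UMIs of 8 nonclassical genes (Treml4, Ace, Cd300e, Adgre4, Eno3, Spn, Ear2 and Pglyrp1, a set chosen after the data were seen) and none of the other marks were found in 27 of the 111 (24.3%). The last 25 cells had none of these. The label nonclassical thus held for a minority of the cells chosen by absence of Ly6c2. Of the 95 cells with at least 2 Ly6c2 UMIs, 20 reached 5 UMIs of the nonclassical genes and carried none of the other marks. Another 57 had no mark at all.

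**Figure D2:**
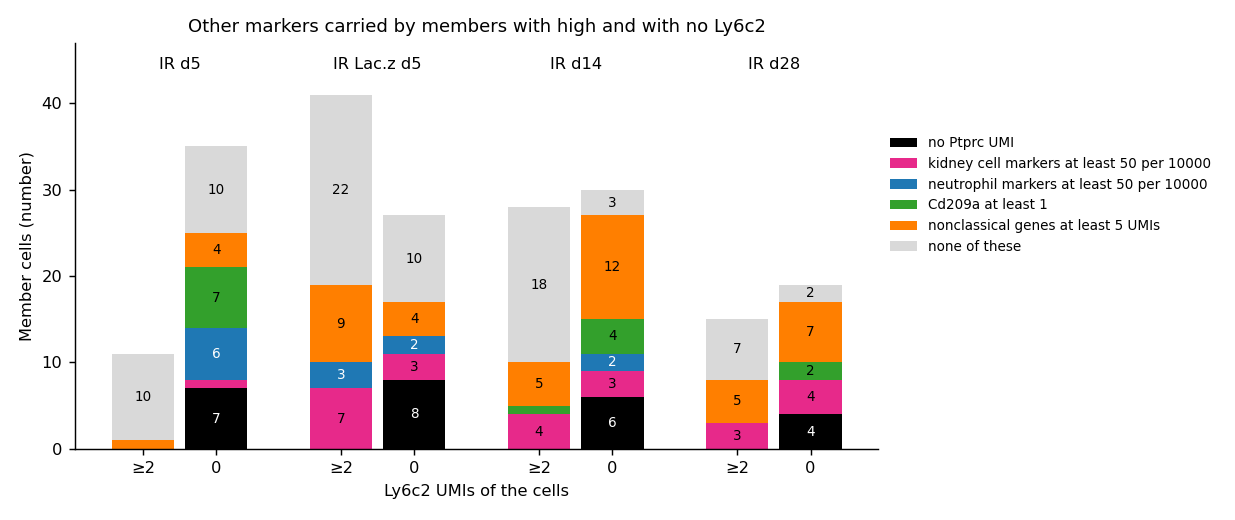
Members with at least 2 and with 0 Ly6c2 UMIs in each library (vertical axis: number of cells), split by the other markers they carry, taken in the order of the legend from no Ptprc UMI onward. Nonclassical genes without another mark are carried by 4, 4, 12 and 7 of the cells with 0 Ly6c2 UMIs.

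Among the cells with 0 Ly6c2 UMIs the kinds differed by library. In the same fixed order of marks, 4 of 35 at day 5 had only the nonclassical genes, 7 had Cd209a and 6 had neutrophil markers. Cells with an earlier mark were not counted as nonclassical, though neutrophil-marked day 5 cells held up to 25 UMIs of the 8 genes. With Lac.z, 4 of 27 were counted as nonclassical and 8 had no Ptprc. At day 14, 12 of 30 were counted as nonclassical, and at day 28, 7 of 19. Treml4 had a UMI in 28.6%, 14.8%, 46.7% and 42.1% of these cells, and in 9.09%, 29.3%, 10.7% and 33.3% of the cells with at least 2 Ly6c2 UMIs. In the tubule barcodes Treml4 was at 0, 0, 0.0184% and 0. Ace had a UMI in 28.6%, 25.9%, 50.0% and 47.4% of the cells with 0 Ly6c2 UMIs. Ace is also made by the tubule brush border, and 6.36%, 7.80%, 15.0% and 11.7% of tubule barcodes had a UMI of it.

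**Figure D3:**
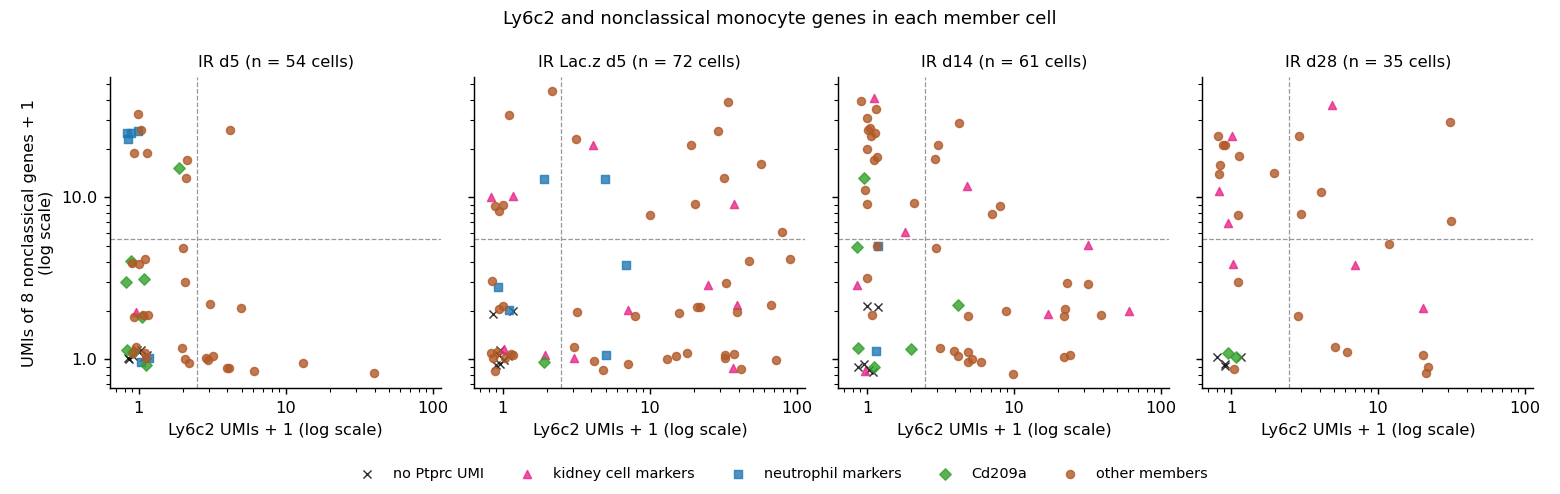
UMIs of Ly6c2 (horizontal) and of the 8 nonclassical genes together (vertical) in each member, both plus 1 on log axes, with points spread slightly for view and marked by other cells' markers; dashed lines stand at the limits of 2 and 5 UMIs. Cells high in both are seen in each library, 1, 9, 5 and 5 of them without other marks.

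Seen from both axes, the filtered members fell into 57 cells with Ly6c2 but few nonclassical UMIs (10, 22, 18 and 7), 27 with nonclassical genes and no Ly6c2 (4, 4, 12 and 7), and 20 with both (1, 9, 5 and 5). A further 25 had neither (10, 10, 3 and 2). Genes that did not define these sets showed how the first 2 differed, as a description of chosen cells. The values are pooled over libraries that gave the sets different numbers of cells, so the folds mix library with kind of cell. F13a1, a subunit of clotting factor XIII, had 204 UMIs (357 CPM) in the Ly6c2 cells and 0 in the nonclassical ones, and the chemokine receptor Ccr1 had 146 against 0. Ccr2 stood at 1114 against 86.8 CPM, a 12.8-fold difference (7.30 to 25.0). Within libraries Ccr2 stood at 1675 against 0, 1275 against 259, 790 against 47 and 579 against 125 CPM, the nonclassical values resting on 12 UMIs in all. Chil3, a secreted chitinase-like protein, stood at 1818 against 152 CPM, with 1784 against 1165 CPM in the Lac.z library, and fibronectin (Fn1) at 597 against 7.23 CPM. On the other side, the fatty acid and lipoprotein receptor Cd36 stood at 5.25 CPM in the Ly6c2 cells and 456 CPM in the nonclassical ones, where the transcription factor Nr4a1 was 3.89-fold higher (3.12 to 4.85; 301 against 1172 CPM). The integrin gene Itgal was 11.2-fold higher in the nonclassical cells (8.29 to 15.3; 107 against 1193 CPM). The nonclassical cells were also the smaller ones, with median totals of 3493 to 5285 UMIs per library against 7999 to 10327.5 UMIs.

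Within libraries the direct split by Ly6c2 gave classical genes, together with interferon and other genes, on one side and no single programme on the other. In the Lac.z and day 14 libraries, the only ones with at least 20 cells of both kinds, 366 of 4001 measured genes (9.15%) were at least 1.5-fold higher in cells with at least 2 Ly6c2 UMIs in both, and 449 (11.2%) were lower. Of the classical monocyte list, 18 of 18 measured genes were higher, with a median log2 difference of 2.01 against -0.03 over all genes. F13a1 stood at 254 against 20.8 CPM with Lac.z and 301 against 8.99 CPM at day 14. Lyz2, which encodes lysozyme, stood at 15699 against 2301 CPM and 19681 against 3341 CPM. The list of interferon response genes had 22 of 30 higher (median 1.17), the chemokine list 6 of 12 and the coagulation and complement list 4 of 8, with none lower. Of the nonclassical list 3 of 20 genes were higher and 4 lower, with a median of 0.02. The libraries went opposite ways for this list, with medians of 1.18 with Lac.z and -1.04 at day 14. Dusp16, a phosphatase of stress kinases, led the lower genes at 27.4 against 68.2 CPM and 14.0 against 150 CPM, followed by the cell cycle gene Ccnd2. Filtering left 113 of 2126 genes (5.32%) higher and 43 (2.02%) lower. The classical list then gave 11 of 18 higher, the interferon list 11 of 21 (median 0.94), and the nonclassical list a median of -0.96 with 3 of 17 lower. By library the nonclassical median was 0.51 with Lac.z and -1.83 at day 14, so it was not lower in both. The filtered cells with 0 Ly6c2 UMIs numbered 14 with Lac.z and 15 at day 14, below the 20 asked for above.

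The comparison of both day 5 libraries asks how monocytes differ after the probiotic. Of 4010 genes with at least 50 UMIs over both sums, 563 (14.0%) were at least 1.5-fold higher with Lac.z and 285 (7.11%) lower. The list of interferon response genes stood out in count and size. All 34 measured of its 40 genes were higher, with a median log2 difference of 2.79 against 0.06 over all genes. Their summed level was 1814 CPM at day 5 and 11709 CPM with Lac.z. The list was chosen with earlier results of these data known.

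Interferons bind receptors that activate a complex of transcription factors, and this complex binds a short element in the promoters of its targets. Irf7, which amplifies interferon production, stood at 36.8 CPM at day 5 and 616 CPM with Lac.z, with 167 CPM at day 14 and 128 CPM at day 28. This is a 16.7-fold difference with Lac.z (11.1 to 26.4), and the gene was detected in 18 of 54 members against 62 of 72. Isg15, a ubiquitin-like modifier, stood at 32.2, 505, 61.9 and 64.0 CPM in the same order, 15.7-fold higher with Lac.z (10.1 to 25.6). Only the Lac.z library was above 100 CPM for it.

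The Ifit genes encode proteins that bind viral RNA. Ifit3 stood at 6.13, 242, 63.5 and 26.7 CPM, 39.5-fold higher with Lac.z (15.2 to 146) on 4 UMIs at day 5. Ifit1 stood at 7.67, 193, 34.1 and 13.3 CPM, 25.2-fold higher (10.6 to 78.6). Ifit2 rested on 3 UMIs at day 5 against 95, a ratio of 25.4 (8.42 to 125). Ifit3 shares 12.9% of its 60-base end words with Ifit3b, so its counts could be split between them. The antiviral sensor gene Oas3 rested on 3 against 98 UMIs, a ratio of 26.2 (8.70 to 129). Gbp2, a guanylate-binding protein, rested on 1 UMI at day 5 against 64 with Lac.z. Phf11d, on the interferon list, had 3 against 88 UMIs. Slfn4, a myeloid Schlafen gene, stood at 10.7 and 155 CPM, 14.4-fold higher (6.80 to 36.6). For each of these genes the Lac.z library was the highest of the 4.

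Promoters of the leading genes are shown because they hold letters like the known element of that complex. The motif searched was GAAANNGAAA, or TTTCNNTTTC on the other strand, within the 250 bases before each start in the RefSeq promoter table (GRCm38.p6). Among the 10 leading genes higher with Lac.z it was found for these 5, printed from 5′ to 3′ on the gene's strand with the motif in capitals.
Ifit1: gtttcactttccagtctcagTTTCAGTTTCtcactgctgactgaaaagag
Ifit3: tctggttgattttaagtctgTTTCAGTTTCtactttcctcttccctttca
Isg15: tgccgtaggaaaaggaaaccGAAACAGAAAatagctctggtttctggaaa
Oas3: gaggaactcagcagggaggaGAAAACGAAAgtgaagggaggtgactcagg
Gbp2: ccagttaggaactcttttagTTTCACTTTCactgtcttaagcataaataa
These windows lie at chr19:34640784-34640833 on the plus strand (Ifit1), chr19:34583387-34583436 on the plus strand (Ifit3) and chr4:156200855-156200904 on the minus strand (Isg15). Oas3 is at chr5:120777705-120777754 on the minus strand and Gbp2 at chr3:142620584-142620633 on the plus strand. The motif stood 85, 122, 66, 75 and 59 bases before the start, in the order printed. The letters were not in the windows of Irf7, Ifit2, Phf11d, Ly6c2 and Slfn4.

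Of the interferon list 30 genes had a promoter in the table, and 14 of them (46.7%) held the motif. The share was 3.46% of 27025 genes of the whole table, 4.46% of 3183 measured genes with a promoter and 9.91% of 444 genes higher with Lac.z. Without the interferon list the last share was 7.43% of 417 genes. A match describes the letters of the reference and is not evidence of binding.

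Cell by cell, the difference was not carried by a few members. The summed interferon list per cell had a median of 1527 CPM at day 5 (222 to 5869), 14177 CPM with Lac.z (398 to 39673), 4665 CPM at day 14 (0 to 25832) and 5463 CPM at day 28 (525 to 16323). In cells with at least 2 Ly6c2 UMIs the medians were 1995, 17182, 6068 and 9662 CPM. In cells with 0 Ly6c2 UMIs they were 1297, 7873, 2560 and 2353 CPM. The ranges of the libraries overlap at their low ends, and the Ly6c2 cells have the higher median in each library.

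**Figure D4:**
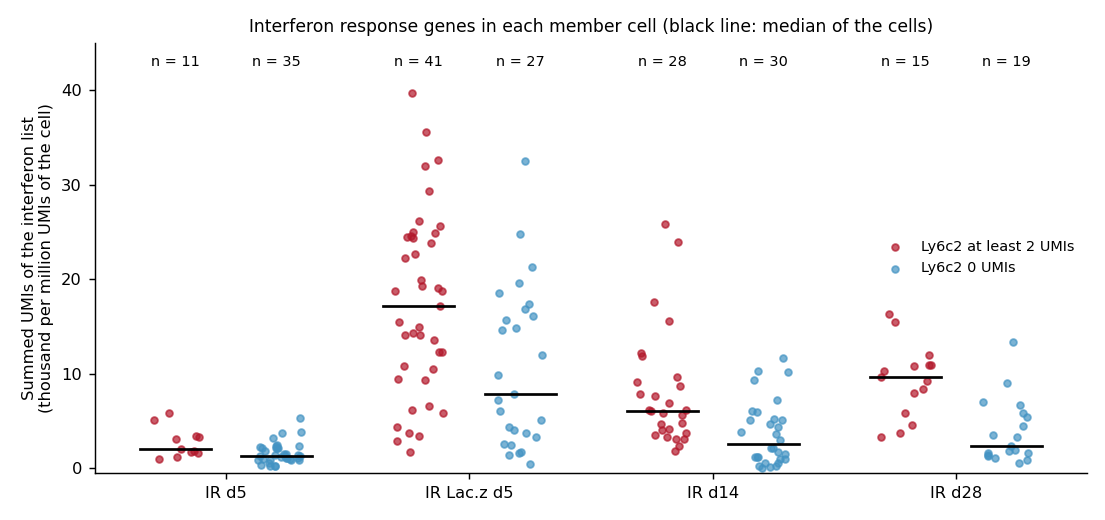
Summed interferon response genes in each member (axis in units of 1000 CPM), by library and by Ly6c2 UMIs; each point is 1 cell and the black line the median of the cells. The highest day 5 member stands at 5869 CPM, below the medians of the Lac.z library (17182 and 7873 CPM for the 2 kinds).

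The higher interferon genes were seen in every cut of the members that was made. In cells with at least 2 Ly6c2 UMIs (41 with Lac.z and 11 without), 26 of 26 measured list genes were higher with Lac.z (median log2 2.98), beside 19.0% of all genes higher and 10.7% lower. In cells with 0 Ly6c2 UMIs 17 of 17 were higher (2.12), beside 17.6% and 10.8%. In the filtered members 27 of 28 were higher (2.89), where 288 of 2178 genes (13.2%) were higher and 117 (5.37%) lower. C1q-high macrophages of the same libraries had 40 of 40 higher with a median of 2.29, beside 11.8% of 11987 genes higher and 2.90% lower, and summed levels of 2098 and 10772 CPM. The interferon difference was therefore also present in macrophages, and whether its size differs between the cell types was not tested.

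Antigen presentation by MHC class I was higher too. Of 16 measured genes of this pathway 11 were higher with Lac.z and none lower (median log2 1.14), and 11 of 14 in the filtered members (1.23). B2m, the light chain shared by class I molecules, stood at 1064, 2315, 1769 and 1696 CPM, 2.18-fold higher with Lac.z. H2-K1, a classical heavy chain, stood at 642, 1788, 901 and 1446 CPM, 2.78-fold higher. The peptide transporter gene Tap1 was 2.89-fold higher and H2-Q7 9.32-fold. Of the list of interferon-gamma GTPases and chemokines 9 of 10 measured genes were higher (median log2 2.26), with Igtp at 10.7 and 62.7 CPM and Irgm1 at 16.9 and 79.9 CPM. In the filtered members 3 of 4 measured genes of this list were higher. Over all members 61.9% of the Iigp1 UMIs with Lac.z came from 1 cell, and Cxcl9 was seen in 2 cells. The Fc receptor genes Fcgr1 (120 and 324 CPM, 2.71-fold) and Fcgr4 (107 and 225 CPM, 2.09-fold) were also higher.

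Ly6c2 RNA itself stood at 130, 1278, 560 and 477 CPM, 9.80-fold higher with Lac.z (7.85 to 12.4), and 6.95-fold in the filtered members. Of 19 measured classical genes 7 were higher and 2 lower with Lac.z. Chil3 stood at 1346, 855, 215 and 42.7 CPM and was 1.57-fold lower, and 2.51-fold in the filtered members. Of 20 nonclassical genes 3 were higher and 2 lower, with a median log2 difference of 0.03. These counts lie near the shares over all measured genes, 14.0% higher and 7.11% lower. Treml4 was among the lower ones, at 59.8 and 34.4 CPM. The classical set therefore did not move as 1 block, and its leading gene was the one used for the split.

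Of the genes lower with Lac.z, fibronectin (Fn1) led, at 492, 154, 299 and 165 CPM. It was 3.20-fold lower with Lac.z (2.6 to 3.97), and 2.99-fold in the filtered members. S100a4, a calcium-binding protein of motile cells, stood at 1821, 1034, 1862 and 1176 CPM, 1.76-fold lower. Pon2, a lactonase of the paraoxonase family, was 2.46-fold lower, Gsto1, a glutathione transferase, 2.45-fold, Ttc19, a mitochondrial protein, 2.5-fold, and Eml4, a microtubule protein, 3.33-fold. Lgals1, which encodes galectin-1, was 1.99-fold lower, but its log2 difference in the filtered members was -0.10. The MHC class II genes H2-Aa, H2-Ab1 and H2-Eb1 were 1.65-, 1.59- and 1.57-fold lower. In the filtered members their log2 differences were 0.04, 0.14 and -0.03, so that these 3 differences were absent at the 1.5-fold rule once cells with other marks were set aside. In cells with at least 2 Ly6c2 UMIs the direction turned, with log2 differences of 0.96, 0.88 and 1.27, on 11 day 5 cells.

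Genes with large differences that rested on single cells were kept apart. Ccl5 had 26 and 862 UMIs at day 5 without and with Lac.z, but in 2 and 5 cells. Ccl2, a chemokine that draws Ccr2-bearing cells, had 80 and 881 UMIs in 15 and 25 cells, with 63.5% of the Lac.z UMIs in 1 cell. The neutrophil gene S100a8 had 476 and 3000 UMIs in 12 and 14 cells, with 60.1% in 1 cell. The part of neutrophil and tubule RNA in the differences with Lac.z was not tested beyond the values of the filtered members.

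**Figure D5:**
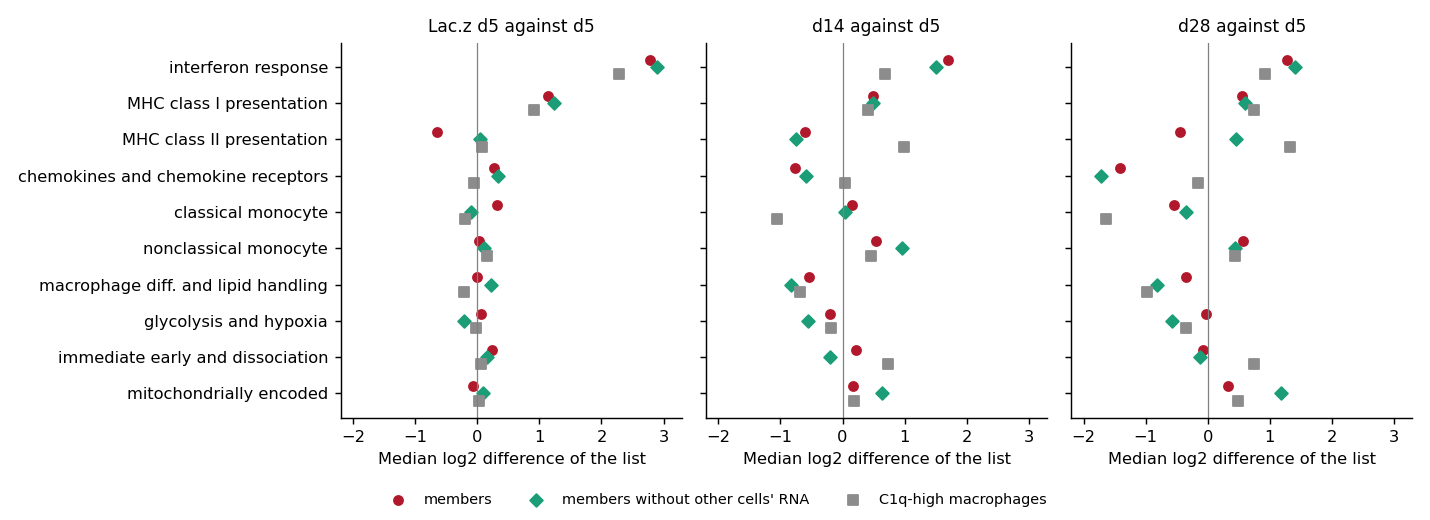
Median log2 difference of 10 gene lists against day 5 (left Lac.z d5, middle d14, right d28), for all members, for the 139 members without other cells' markers and for C1q-high macrophages. The interferon list lies farthest to the right with Lac.z (2.79, 2.89 and 2.29), and the chemokine list farthest to the left at day 28 in members (-1.41 and -1.72).

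The later libraries ask how the monocytes change as injury passes into its later course. Both were compared with the same day 5 library, so the comparisons are not independent of each other or of the one with Lac.z. At day 14, 627 of 3633 measured genes (17.3%) were higher and 439 (12.1%) lower. At day 28, with 35 members, 481 of 2944 (16.3%) were higher and 372 (12.6%) lower. Among genes measured in the filtered members, 17.0% were higher and 12.1% lower at day 14, and 12.2% and 13.4% at day 28.

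Interferon genes were again on the higher side. At day 14, 20 of 20 measured list genes were higher (median log2 1.69 against 0.02 over all genes), and 12 of 13 in the filtered members (1.5). At day 28, 10 of 13 were higher (1.28 against 0.04), and 8 of 8 in the 22 filtered members (1.41). In C1q-high macrophages it was 25 of 40 at day 14 (0.68), beside 18.6% of all genes higher and 7.34% lower. At day 28 it was 33 of 40 (0.92), beside 21.0% and 11.5%. Ifi27l2a, an interferon-induced protein of mitochondria, stood at 527, 3526, 1565 and 2059 CPM, 2.97-fold higher at day 14 and 3.90-fold at day 28. Irf7 was 4.54-fold and 3.48-fold higher, and Oas3 had 51 UMIs at day 14 against 3 at day 5, a ratio of 17.2 (5.55 to 86.0). Zbp1, a sensor of unusual nucleic acid forms, was 3.96-fold higher at day 28, H2-K1 2.25-fold and H2-Q7 6.52-fold. In these genes day 5 without Lac.z was the lowest library of the 4, which follows in part from their being picked as higher than day 5.

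Nonclassical genes were higher in part. At day 14, 10 of 21 measured genes of the list were higher and 4 lower (median log2 0.54), and in the filtered members 12 of 17 higher and 2 lower (0.95). At day 28 it was 9 of 19 higher and 3 lower (0.57), and in the filtered members 6 of 14 higher and 1 lower. Ace stood at 53.7, 83.5, 136 and 155 CPM, 2.54-fold higher at day 14 and 2.88-fold at day 28 (1.86 to 4.52). Nr4a1 stood at 244, 221, 531 and 472 CPM, 2.18-fold and 1.94-fold higher. Spn, which encodes the sialomucin CD43, stood at 59.8, 61.4, 91.3 and 117 CPM, and Eno3, an enolase, at 29.1, 45.5, 63.5 and 96.0 CPM. Treml4, at 59.8, 34.4, 78.9 and 77.3 CPM, differed by less than 1.5-fold at both later times, while in the filtered members it was 1.54-fold and 1.64-fold higher.

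Of 15 measured monocyte transcription factors 6 were higher and 1 lower at day 14, and 4 higher and 6 lower at day 28. The shares over all measured genes were 17.3% and 12.1% at day 14, and 16.3% and 12.6% at day 28. Klf2, a transcription factor of quiescence, stood at 376, 507, 782 and 584 CPM, 2.08-fold higher at day 14. Klf4, a factor of monocyte development, stood at 192, 193, 452 and 467 CPM, 2.36-fold and 2.44-fold higher. Both day 5 libraries were lower than both later ones for Klf4 and Nr4a1.

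Tppp3, which encodes a tubulin polymerization protein, stood at 16.9, 34.4, 167 and 160 CPM, 9.91-fold higher at day 14 (5.33 to 20.4) and 9.49-fold at day 28. It was found in 7, 33 and 17 members of the day 5, day 14 and day 28 libraries. The integrin gene Itgal stood at 113, 129, 367 and 168 CPM, 3.23-fold higher at day 14. Plaur, the urokinase receptor, stood at 76.7, 123, 282 and 179 CPM, 3.68-fold higher at day 14, and the hyaluronan receptor Cd44 was 2.59-fold higher. Gpcpd1, a phosphodiesterase of lipid breakdown, was 5.22-fold higher, Rilpl2, a regulator of transport in the cell, 4.76-fold and Tiam1, an activator of the GTPase Rac, 6.20-fold. Ly6c2 was 4.3-fold higher at day 14 and 3.66-fold at day 28.

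Chemokines and their receptors were on the lower side. At day 14, 8 of 14 measured genes of the list were lower and 1 higher (median log2 -0.77), and at day 28, 11 of 13 were lower and none higher (-1.41). Filtering gave 6 of 12 and 10 of 10 (-1.72). Macrophages of the same libraries had list medians of 0.04 and -0.15.

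The receptors Ccr1 and Ccr2 guide monocytes into inflamed tissue. Ccr2 stood at 826, 709, 457 and 219 CPM, 1.81-fold lower at day 14 and 3.78-fold at day 28 (2.99 to 4.83). Ccr1 stood at 170, 193, 51.1 and 24 CPM, 3.33-fold and 7.09-fold lower. The neutrophil chemoattractant Cxcl2 stood at 590, 989, 226 and 50.7 CPM, 11.6-fold lower at day 28. For Ccr1, Ccr2 and Cxcl2 both day 5 libraries were above both later ones.

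Chil3 gave the largest difference over time among genes with counts in all libraries that the naming rule picked. Its 878 UMIs in 28 members at day 5 compare with 139 UMIs at day 14 and 16 UMIs in 6 members at day 28. It was 6.26-fold lower at day 14 (5.23 to 7.54) and 31.5-fold lower at day 28 (19.3 to 55.4). AA467197, a gene with 138, 273, 41 and 0 UMIs, was at least 26.4-fold lower at day 28 when 3 UMIs are taken as the floor of that library. The exact interval, which also covers the day 5 count, starts at 21.2-fold. Ptgs2, the inducible cyclooxygenase of prostaglandin synthesis, stood at 118, 65.1, 26.3 and 13.3 CPM, 4.49-fold and 8.85-fold lower. Socs3, a brake on cytokine receptors, stood at 802, 667, 328 and 208 CPM, 2.44-fold and 3.85-fold lower. Il1b, an inflammatory cytokine, stood at 1366, 1823, 1268 and 571 CPM, 2.39-fold lower at day 28.

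Cysltr1, a leukotriene receptor, was 7.90-fold lower at day 28, Csf2rb, the shared receptor chain for GM-CSF, 3.61-fold, Arl6ip5, a membrane protein of the endoplasmic reticulum, 4.55-fold, and Fn1 2.98-fold. At day 14 Cfp, which encodes properdin, was 2.79-fold lower, Hk2, a hexokinase, 3.50-fold, Wdr89 3.20-fold and Lgals1 2.33-fold (log2 -0.42 in the filtered members). The pseudogenes Rpl10-ps3 and Rps12-ps3 were 2.77-fold and 3.78-fold lower, and their counts are uncertain because near-identical copies exist. Apoe, which carries lipids and is abundant in macrophages, stood at 3482, 5541, 2050 and 939 CPM, 1.70-fold and 3.71-fold lower. Of the list for macrophage differentiation and lipid handling 8 of 17 genes were lower at day 14 and 6 of 16 at day 28, and none higher. Among all measured genes 12.1% and 12.6% were lower.

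MHC class II genes differed by kind of cell. Over all members the list median was -0.61 at day 14, with 5 of 9 genes lower, and -0.45 at day 28, with 3 of 10 lower. In cells with at least 2 Ly6c2 UMIs it was 0.58 at day 14 (3 of 7 higher, 1 lower), beside 17.7% of all genes higher and 14.3% lower. At day 28 it was 1.73 (5 of 7 higher), beside 11.9% and 14.5%. In cells with 0 Ly6c2 UMIs it was -0.71 at day 14 (7 of 8 lower), beside 18.0% of all genes higher and 16.7% lower. At day 28 it was -1.29 (7 of 7 lower), beside 19.5% and 16.4%. The first kind rested on 11 day 5 cells. The second was a mixture, with Cd209a counted in 7 of 35 cells at day 5, 4 of 30 at day 14 and 2 of 19 at day 28. The part of this mixture in the class II differences was not tested. In the macrophages 10 of 14 class II genes were higher at both times, beside 18.6% of all genes at day 14 and 21.0% at day 28. Ciita, the transactivator of class II genes, had 58 UMIs at day 5 and 4 at day 28, and was 8.33-fold lower, and 3.27-fold in the filtered members.

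Signs of other cells and of doublets were also looked at in the later libraries. Proliferation genes were higher at day 28, but the 66 Ube2c UMIs came from 1 cell and 95.3% of the Top2a UMIs from 1 cell. Among the day 28 members 10 of 35 (28.6%) had a doublet score in the removed range. In the day 5, Lac.z and day 14 libraries it was 5 of 54 (9.26%), 9 of 72 (12.5%) and 8 of 61 (13.1%). The size of that range was set in advance and rises with the number of deposited barcodes. It held 12.5% of all kept barcodes at day 28, and 6.75%, 6.53% and 8.96% in the same other libraries, so part of the difference was fixed by the setting. Mitochondrially encoded genes had a list median of 0.18 at day 14 and 0.33 at day 28 over all members. In the filtered members it was 0.63 (8 of 12 higher) and 1.18 (11 of 11 higher). Their part in the differences over time was not tested.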

How the data were processed

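Each of the 4 libraries was deposited as a matrix of raw counts, the UMIs of 31053 genes in each barcode, per the file headers. The build mm10 comes from the submitters' processing notes. The aligner and annotation were not given in the sources used here.

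No replicate exists, so no model was fitted. UMIs were summed over the members of each library, scaled to CPM and compared as ratios with exact 95% intervals, which cover counting error only. Genes entered with 50 UMIs or more over both sums and were called at 1.5-fold, on log2 values with 1 UMI added. For the split by Ly6c2 a gene needed at least 20 UMIs in each library used. A zero was set to 3 counts for a bound.

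The members and gene lists were chosen with earlier results of these data known. Genes named per comparison between libraries were the 10 highest and 10 lowest by the bound of the interval nearest to 1. For the split by Ly6c2 and for members against macrophages the ranking was by the median log2 difference over the libraries used. Gate genes, mitochondrial, haemoglobin and Y-linked genes and Xist were left out of these. Genes with over 25% of UMIs in 1 cell of the higher library and genes below the CPM of all kept barcodes were left out too. Members of the lists are named for their role, some after their values were seen. Some genes that the rule picked are not reported here.

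Filtered members had at least 1 Ptprc UMI, under 50 UMIs per 10000 of kidney markers, under 50 of neutrophil markers and 0 of Cd209a. C1q-high macrophages had at least 1 Csf1r UMI, at least 10 C1q UMIs and 0 of the 5 excluded genes. Doublets (Scrublet in scanpy 1.11.5) were kept, and removed in an alternative at 0.8% per 1000 deposited barcodes. The ratios and intervals were tested on simulated counts drawn independently for each gene. These hold no spread between cells or animals, so the test does not show that the intervals cover such spread. Python 3.11.15, numpy 2.4.6, scipy 1.17.1 and matplotlib 3.10.9 were used.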

Additional observations from a re-analysis of the deposited data

How the results depend on the processing

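No paired analysis was possible because each group has 1 library. Where several values follow each other they are for Lac.z, day 14 and day 28 against day 5, in that order; where a result moved or turned, the cause was not tested beyond what the setting itself changes. The ratio of the share of members (1.34, 0.836 and 0.325) became 2.65, 1.94 and 0.641 when barcodes were thinned to 2000 UMIs before gating, and for day 28 it was 0.568 with C1q at 0. Chosen after seeing the data were the shares of Ptprc barcodes (2.75, 2.59 and 2.13), of Csf1r barcodes (2.86, 3.53 and 3.39) and those with a Ptprc UMI required in place of the Plac8 minimum (0.581, 0.520 and 0.155); the day 28 share thus turned from lower to higher with both narrower denominators. The ratio of the Ly6c2 share was 21.3, 15.9 and 9.26 with members thinned before the split, on 1 positive day 5 cell. At day 28 it turned to 0.948 with thinning before gating, where Ly6c2 was still read at full depth. For the gene results below, thinning changed only which cells were summed, and the sums are of full counts. Higher genes (563, 627 and 481) numbered 866, 1506 and 896 with Plac8 at least 1, 207, 205 and 65 after thinning, 288, 294 and 150 in the filtered members (chosen after seeing the data), 1202, 1348 and 1357 with at least 20 UMIs, 107, 114 and 77 with at least 200, and 298, 285 and 216 at 2-fold; at day 28 it was 298 without doublets. Lower genes (285, 439 and 372) numbered 444, 1013 and 794, then 138, 148 and 71, 117, 209 and 165, 768, 953 and 901, 45, 95 and 86, and 82, 141 and 156 under the same settings; at day 14 it was 261 with C1q at 0. The interferon median with Lac.z (2.79) was 2.12 in cells with 0 Ly6c2 UMIs. For the split by Ly6c2, higher genes (366) numbered 1118 with Plac8 at least 1, 225 with at least 5, 97 after thinning, 113 in the filtered members, 195 with at least 50 UMIs, 137 at 2-fold and 792 without the Lac.z library; lower genes (449) numbered 1660, 178, 51, 43, 152, 228 and 985, and 850 with at least 10 UMIs. With the gate read on thinned counts, the log2 differences of the full-depth sums turned for some genes. With Lac.z they turned to 0.62 for Eml4, 0.16 for Lgals1, 0.49 for H2-Aa, 0.71 for H2-Ab1 and 1.20 for H2-Eb1. That of AA467197 turned to 1.35 at day 14 and 0.17 at day 28, and that of Ciita to 1.17 at day 28. H2-Aa (0.0366) and H2-Ab1 (0.14) also turned in the filtered members, and Gsto1 (0.21) with C1q at most 5. Of the other values for single genes 384 stayed inside the interval of the value given and 85 left it without turning. The members are few, 35 at day 28 and 22 after filtering, so genes with few UMIs cannot be ranked there, and differences between animals cannot be seen with 1 library per group.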

Other observations

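Several gene groups of the members are not described above. Immediate early genes, which also respond to tissue dissociation, had 6 of 19 measured members higher and 3 lower at day 14, and 8 of 19 higher and 6 lower at day 28. Among filtered members it was 3 higher and 5 lower of 17, and 4 higher and 6 lower of 16. Over all measured genes 17.3% were higher and 12.1% lower in members at day 14, and 16.3% and 12.6% at day 28. In the filtered members it was 17.0% and 12.1%, and 12.2% and 13.4%. In C1q-high macrophages of the same libraries 15 of 23 were higher at both times, with medians of 0.72 and 0.75 on the log2 scale. Of all genes measured in them 18.6% were higher at day 14 and 21.0% at day 28. Whether the cell types differ in this was not tested.

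Genes of glycolysis and hypoxia differed little over all members, with a median log2 difference of 0.05 with Lac.z and of -0.20 and -0.03 at days 14 and 28. In the filtered members 5 of 11 were lower at day 14 (-0.55) and 4 of 9 at day 28 (-0.58), and none was higher. Fc receptors and phagocytosis genes had 5 of 14 higher with Lac.z and none lower, and 5 of 10 lower at day 28 and none higher, with 2 of 10 lower in the filtered members. Inflammatory cytokines and their receptors had 1 of 19 higher and 1 lower with Lac.z, while at day 28 1 of 14 was higher and 6 were lower. After filtering, day 28 gave 4 higher and 3 lower of 10. The adhesion and homing list had 5 of 15 higher and 1 lower at day 14, and none of 12 higher and 2 lower at day 28. Over all measured genes 14.0% were higher and 7.11% lower with Lac.z, 17.3% and 12.1% at day 14, and 16.3% and 12.6% at day 28. Filtered members had 17.0% and 12.1% at day 14, and 12.2% and 13.4% at day 28. The lower counts of the adhesion list at day 28 and of the Fc receptor list in the filtered members lie near these shares.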
